A study of Mus musculus with 12 samples.

Results

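The iron and heme handling genes described here are 10 genes chosen by symbol. They cover iron uptake (Tfrc, Slc11a1 and Slc11a2), iron export (Slc40a1), storage and its turnover (Fth1, Ftl1 and Ncoa4), heme breakdown (Hmox1) and the sensing of cytosolic iron (Aco1 and Ireb2). Each of the 10 symbols had 1 entry among the 28293 genes of the count table, and all 10 were among the 13775 genes left by a filter on low counts. RNA sequencing had been done on 12 libraries of osteoclast precursor cells from marrow of wild-type male C57BL/6J mice aged 6 months, grown for 3 days in 10 ng/ml M-CSF, a growth factor of the macrophage lineage. In 6 libraries, called RANKL+Dex, the cells had received 25 ng/ml RANKL, the cytokine that drives osteoclast formation, together with 10 nM dexamethasone, a synthetic glucocorticoid, for 24 h. The other 6 libraries, called RANKL, had received 25 ng/ml RANKL alone for 24 h, with 10 ng/ml M-CSF in the induction medium of both groups. The protocols do not make clear whether these 24 h came after an earlier 24 h with RANKL, and they mention triplicates where the design text gives 6 replicates a group. A batch number from 1 to 6 joined each RANKL+Dex library to 1 RANKL library. The cells are a primary culture that is not sorted, and the labels do not say whether each culture came from its own mouse, so every p-value rests on culture-to-culture spread, which may be technical.

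Cells take up transferrin-bound iron through the transferrin receptor, release it from endosomes through a divalent metal transporter, and store what is not used in ferritin, a shell of heavy and light chains. Ferroportin is the known cellular exporter of iron, and heme oxygenase frees iron from heme. Iron regulatory proteins bind stem-loops called iron-responsive elements when iron is scarce. Binding in a 5′ UTR blocks translation, as in ferritin mRNA, and binding in the 3′ UTR of transferrin receptor mRNA protects it from decay. Osteoclasts are rich in mitochondria, and transferrin receptor rises during their formation. Much of this control acts on translation and on protein, which RNA counts do not measure.

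The stem-loops of the member transcripts are shown because they are the elements that Aco1 and Ireb2 products read. The search took a C, an arm of 5 bases, the loop CAGTG followed by A, C or T, and an arm of 5 bases in which all 5 positions pair with the first arm, G-U pairs included, on the transcript strand of GENCODE M21 transcripts (GRCm38). Each sequence runs 5′ to 3′ over 29 bases in DNA letters, 6 flanking bases on each side included, with the 6 loop bases in capitals.
Tfrc 3′ UTR, base 3315: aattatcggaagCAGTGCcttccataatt
Tfrc 3′ UTR, base 3694: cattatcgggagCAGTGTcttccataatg
Tfrc 3′ UTR, base 3759: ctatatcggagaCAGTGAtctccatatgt
Tfrc 3′ UTR, base 3806: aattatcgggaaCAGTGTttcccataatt
Slc40a1 5′ UTR: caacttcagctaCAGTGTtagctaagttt
Fth1 5′ UTR: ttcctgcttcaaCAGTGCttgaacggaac
Ftl1 5′ UTR: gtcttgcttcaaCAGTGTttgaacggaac

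The printed stretches began for Tfrc at bases 3315, 3694, 3759 and 3806 of its principal transcript. Those in 5′ UTRs began at base 90 for Slc40a1, base 87 for Fth1 and base 78 for Ftl1 of the principal transcripts. Fth1 and Ftl1 held the same arms of 5 bases, ttcaa before the loop and ttgaa after it, and differed in the last loop base. A match to the same pattern lay in a 5′ UTR of 23 of 21901 protein-coding genes (0.105%) and in a 3′ UTR of 100 (0.457%). No match was found in Slc11a1, Slc11a2, Ncoa4, Hmox1, Aco1 or Ireb2, which says only that this strict pattern is not in the UTRs searched. An element with an unpaired base within the arms would be missed, so these genes are not shown to lack iron-responsive elements. A match is a description of the sequence and not a measurement of binding.

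Library totals ran from 16820193 to 28523595 counts in RANKL+Dex and from 17674405 to 25451498 counts in RANKL. The 10 genes together took 0.891% to 1.01% of the counts of a RANKL+Dex library and 0.937% to 1.10% of a RANKL library. All 11 osteoclast markers looked up were expressed, with summed levels of 49504 to 53362 CPM (counts scaled to library size) in RANKL+Dex and 47927 to 52020 CPM in RANKL. Their sum was higher in RANKL+Dex in 6 of 6 batches, and by edgeR 5 of the 11 were higher, 1 was lower and 5 did not pass. Over all tested genes 7.98% were higher and 7.55% lower. Ctsk, Acp5, Nfatc1 and Oscar were higher by 0.15 to 0.20 on the log2 scale, and Itgb3 was lower (log2 fold change -0.15, adjusted p = 0.0132). Mmp9, the most abundant of the 11, averaged 22258 CPM in RANKL+Dex and 23115 CPM in RANKL. It was lower in RANKL+Dex in 4 of 6 batches and was not called (log2 fold change -0.05, edgeR adjusted p = 0.418). Calcr, the calcitonin receptor of osteoclasts, rose most and averaged 272 CPM in RANKL+Dex and 97.4 CPM in RANKL (adjusted p = 1.3e-09). The part of these differences in the results on iron and heme genes was not tested. Macrophage markers summed to 3498 to 4191 CPM in RANKL+Dex and 3373 to 4000 CPM in RANKL. Erythroid markers, which would mark marrow red cell precursors with their own heme and iron programme, summed to 0.249 to 0.742 CPM in RANKL+Dex and 0.227 to 0.816 CPM in RANKL. None of the 10 erythroid genes in the table passed the filter on low counts, and the globin genes Hba-a1 and Hbb-bt had 7 and 4 counts over all 12 libraries. Markers of stromal and endothelial, B, T and NK, and dendritic cells summed to at most 16.8 CPM for any list and library of RANKL+Dex and 20.4 CPM of RANKL.

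Levels of different genes were compared per kilobase of the principal annotated transcript, in CPM per kb scaled with TMM factors. Ferritin stood far above the rest. Fth1, the heavy chain that oxidises iron for storage, averaged 4841 ± 425 CPM per kb in RANKL+Dex and 5187 ± 536 CPM per kb in RANKL (SD, n = 6 each). Ftl1, the light chain that helps form the iron core, averaged 2701 ± 137 CPM per kb in RANKL+Dex and 2888 ± 252 CPM per kb in RANKL. Below them came Hmox1 with 285 ± 81.7 CPM per kb in RANKL+Dex and 240.3 ± 48.7 in RANKL, and Tfrc with 184 ± 31.3 in RANKL+Dex and 191 ± 32.5 in RANKL. Slc11a2, Ncoa4 and Slc11a1 followed between 76.0 and 100.1 CPM per kb in RANKL+Dex and between 88.8 and 96.5 CPM per kb in RANKL. Aco1 averaged 44.5 CPM per kb in RANKL+Dex and 45.4 in RANKL, and Ireb2 17.9 in RANKL+Dex and 17.8 in RANKL. Slc40a1 was the lowest of the 10, with 6.33 ± 1.59 CPM per kb in RANKL+Dex and 5.35 ± 1.18 in RANKL.

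**Figure D1:**
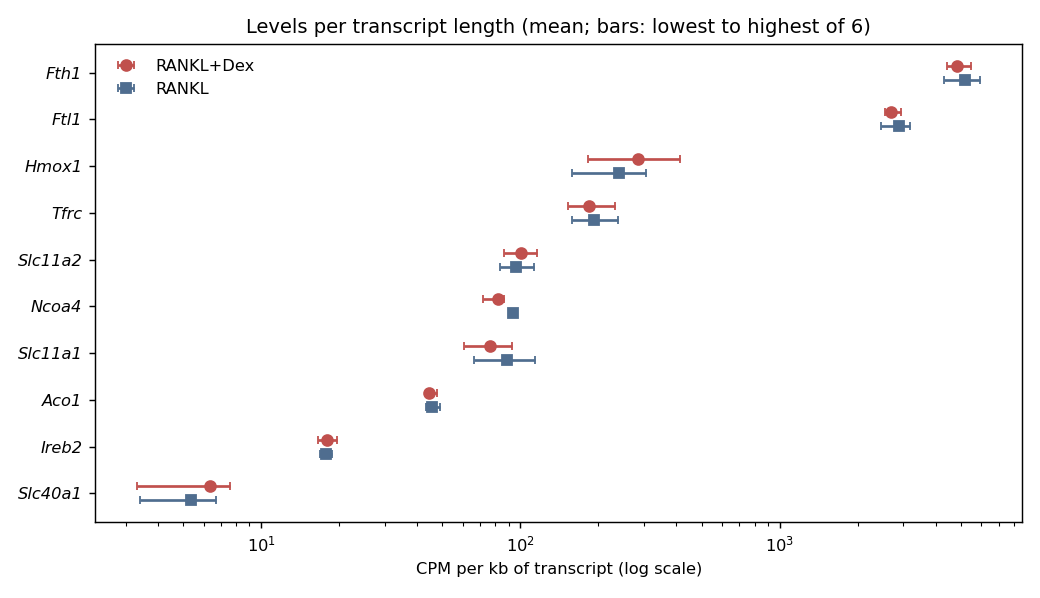
Level of each of the 10 genes in CPM per kb of principal transcript on a log axis, with RANKL+Dex above RANKL, points at the mean of 6 libraries and bars from the lowest to the highest library. The order of the means, with Fth1 at 4841 in RANKL+Dex and 5187 in RANKL at the top and Slc40a1 at 6.33 and 5.35 at the bottom, was the same in both groups.

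With the principal transcript, the order of the means was the same in both groups. Within each group the library ranges overlapped between Hmox1 and Tfrc, between Slc11a2 and Ncoa4, and between Ncoa4 and Slc11a1, so these neighbours were not set apart by their spread. The ranges of all other neighbours in the order were separate. The order depends on the length used: with the union of all annotated exons, Ftl1 stood above Fth1, at 1951 against 1296 CPM per kb in RANKL+Dex and 2086 against 1389 CPM per kb in RANKL, and Ncoa4 was in place 8 of 10. With that length the order also differed between the groups. Slc11a2 and Slc11a1 stood at 47.7 and 47.5 CPM per kb in RANKL+Dex, and at 46.0 and 55.5 CPM per kb in RANKL. The per-length ratio of Fth1 to Ftl1 averaged 1.79 ± 0.147 in RANKL+Dex and 1.81 ± 0.239 in RANKL (SD, n = 6 each), and was higher in RANKL+Dex in 3 of 6 batches. The direction of this ratio thus differed between batches.

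The question put to the 10 genes was whether dexamethasone changed their RNA. Across all 13775 tested genes, edgeR's quasi-likelihood test with Benjamini-Hochberg adjustment called 15.5% at an adjusted p under 0.05, 7.98% higher and 7.55% lower in RANKL+Dex. Among the 10 genes, 0 were higher and 1, Ncoa4, was lower by this test. At an unadjusted p under 0.05 the edgeR counts were the same, and DESeq2 also called 0 higher and Ncoa4 alone lower. With the shared batch number as a block, which pairs the libraries by their label, the test called 21.8% of all genes, 10.6% higher and 11.1% lower. The same fit with the block called 4 of the 10: Hmox1 and Slc40a1 were higher, and Ncoa4 and Slc11a1 lower. The median log2 fold change of the 10 genes was -0.05, against -0.0034 over all tested genes, and the median absolute value was 0.098 against 0.107. In cultures of mixed cells, fewer cells of a type and less RNA per cell cannot be told apart.

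**Figure D2:**
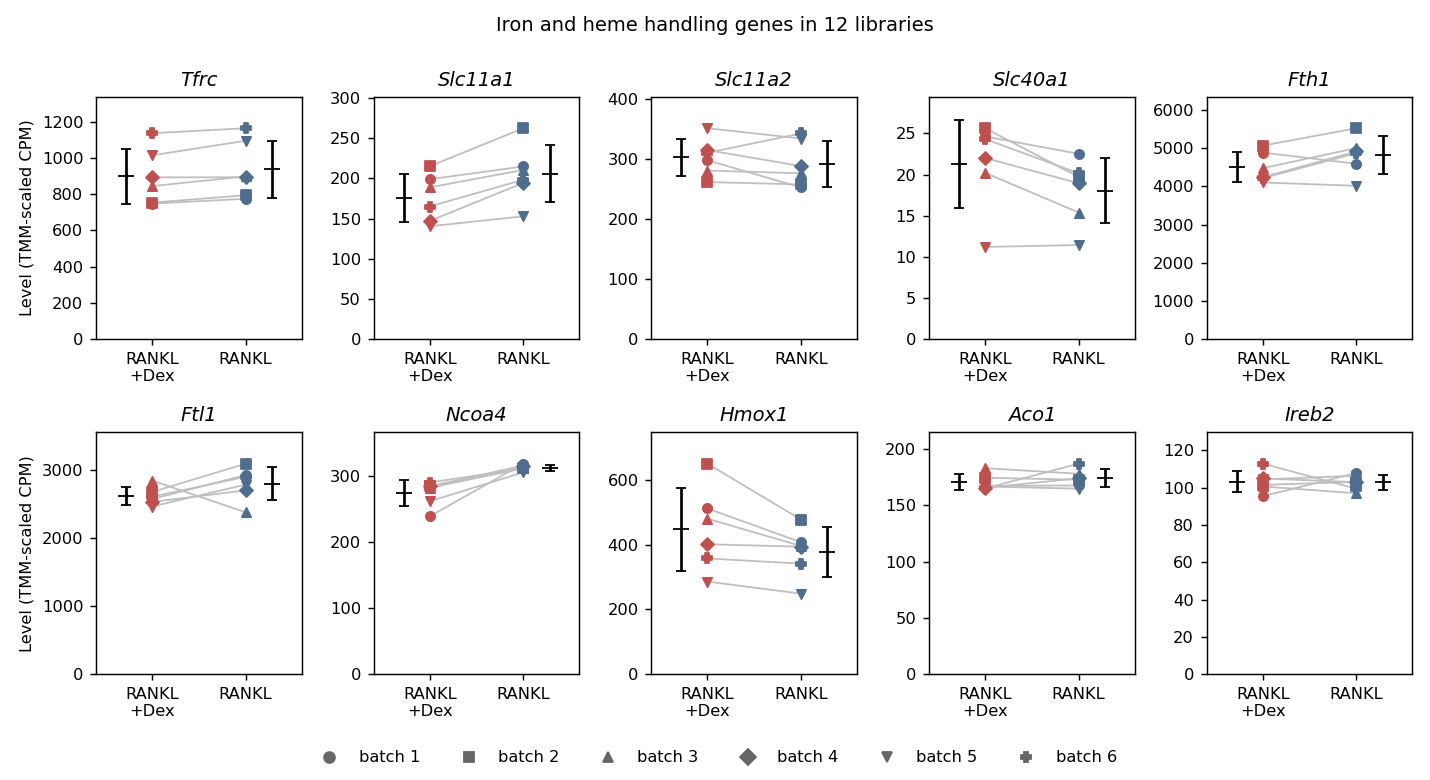
Level of each gene in TMM-scaled CPM, on axes that start at 0, in the 6 RANKL+Dex libraries (left, red) and the 6 RANKL libraries (right, blue), with lines joining the 2 libraries of a batch and black bars giving the mean ± SD. The Ncoa4 groups did not overlap (at most 289.7 in RANKL+Dex, at least 305 in RANKL), and for Hmox1 every line ran in the same direction while the groups overlapped.

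Among the storage genes, Ncoa4 was lower with dexamethasone, while the ferritin chains themselves did not pass the test. Ncoa4 (ENSMUSG00000056234, GRCm39 chr14:31881822-31901812, plus strand) encodes the cargo receptor that carries ferritin to lysosomes, where its iron is released. Its lowest, median and highest levels were 239, 283 and 289.7 CPM in RANKL+Dex, and 305, 311 and 318 CPM in RANKL. All 6 RANKL+Dex libraries lay below all 6 RANKL libraries, as for 7.01% of all tested genes in either direction. The log2 fold change was -0.19 ± 0.04 (SE; edgeR adjusted p = 0.00574), and -0.19 ± 0.04 with the block (adjusted p = 0.00166). Within batches the log2 difference ran from -0.41 in batch 1 to -0.10 in batch 6. The RANKL+Dex library of batch 1 was the lowest of all 12, and without it the call held. RANKL libraries were close together, with an SD of 4.49 CPM against 19.5 CPM in RANKL+Dex.

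Fth1 (ENSMUSG00000024661, GRCm39 chr19:9957962-9962462, plus strand) had lowest, median and highest levels of 4101, 4357 and 5068 CPM in RANKL+Dex, and 4015, 4891 and 5522 CPM in RANKL. The groups overlapped, and the level was lower in RANKL+Dex in 4 of 6 batches and higher in batches 1 and 5. Its log2 fold change was -0.10 ± 0.07 (edgeR adjusted p = 0.347; 0.0846 with the block). Ftl1 (ENSMUSG00000050708, GRCm39 chr7:45107368-45109308, minus strand) had 2463, 2589 and 2843 CPM in RANKL+Dex, and 2378, 2841 and 3091 CPM in RANKL. It was lower in RANKL+Dex in 5 of 6 batches, and batch 3 ran the other way, with 2843 CPM in RANKL+Dex and 2378 CPM in RANKL. The log2 fold change of Ftl1 was -0.10 ± 0.05 (edgeR adjusted p = 0.241; 0.182 with the block). The side of the threshold turned on batch 3, since without both its libraries the log2 fold change was -0.16 (adjusted p = 0.0248), and without the RANKL library alone it was -0.14 (adjusted p = 0.0439). Genes annotated as ferritin pseudogenes held 275 counts for Fth1 and 13034 for Ftl1 over the 12 libraries, or 0.0237% and 1.93% of the counts of each parent, and the sources do not state how reads shared with them were counted. An overlapping gene on the opposite strand, Gm10252, held 146 counts beside Ftl1. The per-length ratio of Ncoa4 to Fth1 was 0.0170 ± 0.00207 in RANKL+Dex and 0.0181 ± 0.00186 in RANKL, and was higher in RANKL+Dex in 3 of 6 batches.

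Hmox1 was higher with dexamethasone in every batch, by an amount smaller than the spread between batches. Hmox1 (ENSMUSG00000005413, GRCm39 chr8:75820249-75827217, plus strand) encodes inducible heme oxygenase, which opens heme to biliverdin, carbon monoxide and iron. Its lowest, median and highest levels were 286, 440.1 and 649 CPM in RANKL+Dex, and 249, 394 and 477 CPM in RANKL. The groups overlapped. Both libraries of batch 2 were the highest of their group and both of batch 5 the lowest. In batch 2 the levels were 649 CPM in RANKL+Dex and 477 CPM in RANKL, and in batch 5 they were 286 CPM in RANKL+Dex and 249 CPM in RANKL. The log2 difference within batches ran from 0.03 in batch 4 to 0.44 in batch 2. Without the block the log2 fold change was 0.25 ± 0.16 (edgeR adjusted p = 0.347), and with it 0.23 ± 0.05 (adjusted p = 0.00175). The value without the block was 0.11 without the RANKL+Dex library of batch 2, 0.15 without the RANKL library of batch 5 and 0.35 without the RANKL+Dex library of batch 5. With the block it stayed between 0.18 and 0.26 when a batch was left out. The summed macrophage markers were also highest in batch 2, at 4191 CPM in RANKL+Dex and 4000 CPM in RANKL, and stood at 3505 CPM in RANKL+Dex and 3373 CPM in RANKL in batch 5. Their part in the Hmox1 result was not tested.

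Slc40a1 was higher with dexamethasone in 5 of 6 batches and passed the test with the block alone. Slc40a1 (ENSMUSG00000025993, GRCm39 chr1:45947228-45965683, minus strand) encodes ferroportin. Its lowest, median and highest levels were 11.2, 23.2 and 25.6 CPM in RANKL+Dex, and 11.4, 19.3 and 22.5 CPM in RANKL. Both libraries of batch 5 stood apart at the low end, with 11.2 CPM in RANKL+Dex and 11.4 CPM in RANKL, and the other 5 batches were all higher in RANKL+Dex. Without the block the log2 fold change was 0.25 ± 0.17 (edgeR adjusted p = 0.367), and with it 0.24 ± 0.06 (adjusted p = 0.0130). With the block and without batch 2 the log2 fold change was 0.21 ± 0.07 (adjusted p = 0.0562), and without batch 5 it was 0.28 ± 0.06 (adjusted p = 0.00702). Without the block the value was 0.15 without the RANKL library of batch 5 and 0.38 without the RANKL+Dex library of that batch. The gene had 2657 counts in the 6 RANKL+Dex libraries and 2280 in the 6 RANKL libraries, the fewest of the 10.

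The uptake genes did not move together. Tfrc (ENSMUSG00000022797, GRCm39 chr16:32427738-32451612, plus strand), the transferrin receptor, had lowest, median and highest levels of 747, 868 and 1136 CPM in RANKL+Dex, and 774, 895 and 1163 CPM in RANKL. Its level was lower in RANKL+Dex in 6 of 6 batches, but by at most 0.11 on the log2 scale, and in batch 4 the levels were 892 CPM in RANKL+Dex and 893 CPM in RANKL. The log2 fold change was -0.06 ± 0.11 (edgeR adjusted p = 0.775), and -0.06 ± 0.03 with the block (adjusted p = 0.160). Neither fit called it.

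Slc11a1 (ENSMUSG00000026177, GRCm39 chr1:74414354-74425221, plus strand) encodes the divalent metal transporter of phagosome membranes, known from macrophages for resistance to intracellular microbes. Its lowest, median and highest levels were 141, 177 and 215 CPM in RANKL+Dex, and 153, 205 and 263 CPM in RANKL. The groups overlapped, while each of the 6 batches was lower in RANKL+Dex, by 0.11 to 0.40 on the log2 scale. The log2 fold change was -0.22 ± 0.11 without the block (edgeR adjusted p = 0.210) and -0.22 ± 0.04 with it (adjusted p = 5.7e-04). Without the RANKL library of batch 2 the value without the block was -0.14. Like Hmox1, it was highest in batch 2 and lowest in batch 5, as the macrophage markers were in RANKL, and their part in the result was not tested.

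Slc11a2 (ENSMUSG00000023030, GRCm39 chr15:100285779-100322953, minus strand), the divalent metal transporter that moves iron out of endosomes, had 262, 304 and 351 CPM in RANKL+Dex, and 253, 282 and 343 CPM in RANKL as lowest, median and highest levels. It was higher in RANKL+Dex in 5 of 6 batches and lower in batch 6. The log2 fold change was 0.05 ± 0.08 (edgeR adjusted p = 0.722; 0.357 with the block). An overlapping gene on the opposite strand, Gm5475, held 474 counts, or 0.648% of those of Slc11a2, and without strand information reads of the overlap cannot be told apart. The per-length ratio of Slc11a2 to Slc11a1 was 1.37 ± 0.366 in RANKL+Dex and 1.13 ± 0.330 in RANKL (SD, n = 6 each), and was higher in RANKL+Dex in 6 of 6 batches. Outside batch 6 that follows from Slc11a2 being higher and Slc11a1 lower, and is no added evidence.

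The iron sensors differed least between the groups. Aco1 (ENSMUSG00000028405, GRCm39 chr4:40143081-40198338, plus strand) encodes a protein that is a cytosolic aconitase with an iron-sulfur cluster and an iron regulatory protein without one. Its lowest, median and highest levels were 165, 167 and 183 CPM in RANKL+Dex, and 165, 173 and 187 CPM in RANKL. Ireb2 (ENSMUSG00000032293, GRCm39 chr9:54771073-54819814, plus strand), the second iron regulatory protein, is degraded when iron is plentiful, so that its RNA does not report its protein. It had 95.35, 103 and 113 CPM in RANKL+Dex, and 96.9, 103 and 108 CPM in RANKL. Both genes were higher in RANKL+Dex in 3 batches and lower in 3. The log2 fold change of Aco1 was -0.03 ± 0.04 (edgeR adjusted p = 0.665) and that of Ireb2 0.01 ± 0.04 (adjusted p = 0.947).

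**Figure D3:**
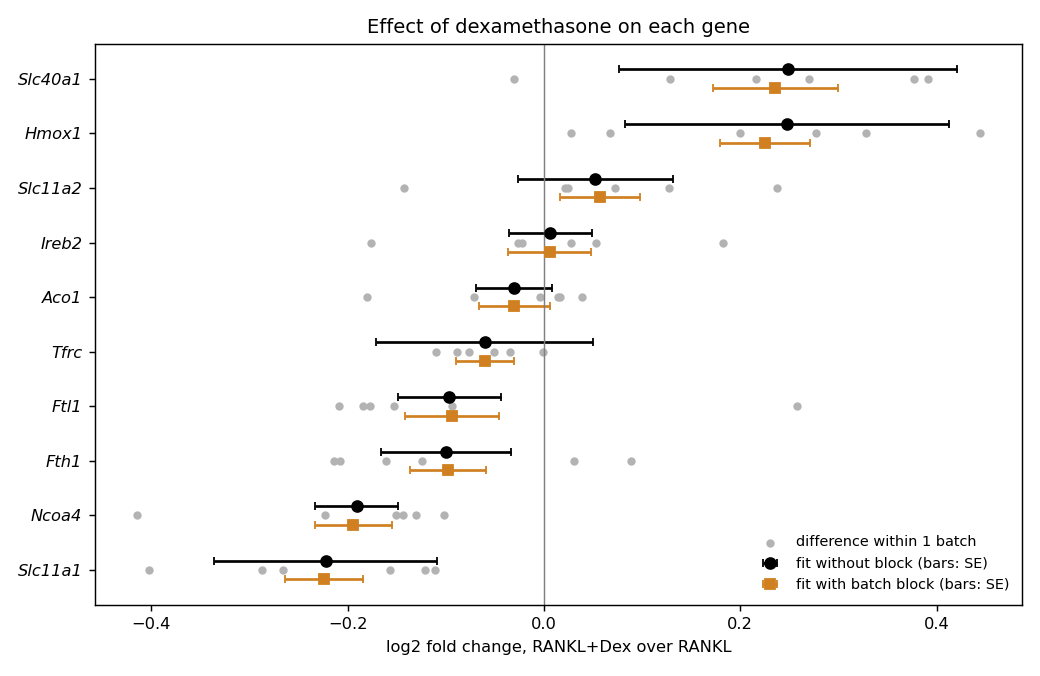
Log2 fold change of each gene, RANKL+Dex over RANKL, from the fit without the block (black circles) and with the batch block (orange squares), with bars for the SE, and the difference within each of the 6 batches in grey. The block left the estimates nearly in place and shortened the bars of Hmox1 (0.16 without the block, 0.05 with it), Slc40a1, Slc11a1 and Tfrc, while those of Ncoa4, Aco1 and Ireb2 kept nearly the same length.

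The 10 genes fell apart by how much the batches differed. For each gene, the SD of the 6 batch means of log2 CPM was set beside the SD of the 6 differences between RANKL+Dex and RANKL. Over all tested genes the median of the first was 0.1004 and that of the second 0.161. Even without batch effects a mean of paired libraries has a smaller SD than their difference, so equal values are not the baseline. Slc40a1 had an SD of batch means of 0.394, larger than in 93.9% of all tested genes, and Hmox1 one of 0.363, larger than in 92.1%. Both differed by about 1 doubling between their highest and lowest batch, with batch means apart by 1.05 (Slc40a1) and 1.06 (Hmox1) on the log2 scale. For Slc11a1 the SD of batch means was 0.243 and for Tfrc 0.239.

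Tfrc was the extreme case of steady differences. Its mean level was 1.51 times as high in batch 6 as in batch 1, yet the SD of its differences between RANKL+Dex and RANKL was only 0.0396, so the SD of batch means was 6.04 times as large, against a median ratio of 0.596 over all tested genes. The order of the batches was roughly opposite for Tfrc and for Hmox1 and Slc11a1, since the high batches of Tfrc were 5 and 6, at 1014 and 1136 CPM in RANKL+Dex and 1094 and 1163 CPM in RANKL. The per-length ratio of Hmox1 to Tfrc ran from 0.878 to 2.69 in RANKL+Dex and from 0.708 to 1.87 in RANKL, with means of 1.64 and 1.31. It was higher in RANKL+Dex in 6 of 6 batches. That follows from Hmox1 being higher and Tfrc lower in every batch, and is no added evidence. At the other end, the SD of batch means was 0.0513 for Ncoa4, 0.0461 for Aco1 and 0.0376 for Ireb2, the last larger than in only 7.54% of all tested genes. Of the 10 genes, 4 (Tfrc, Slc11a1, Ncoa4 and Hmox1) ran in 1 direction in all 6 batches, beside 21.8% of all tested genes.

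**Figure D4:**
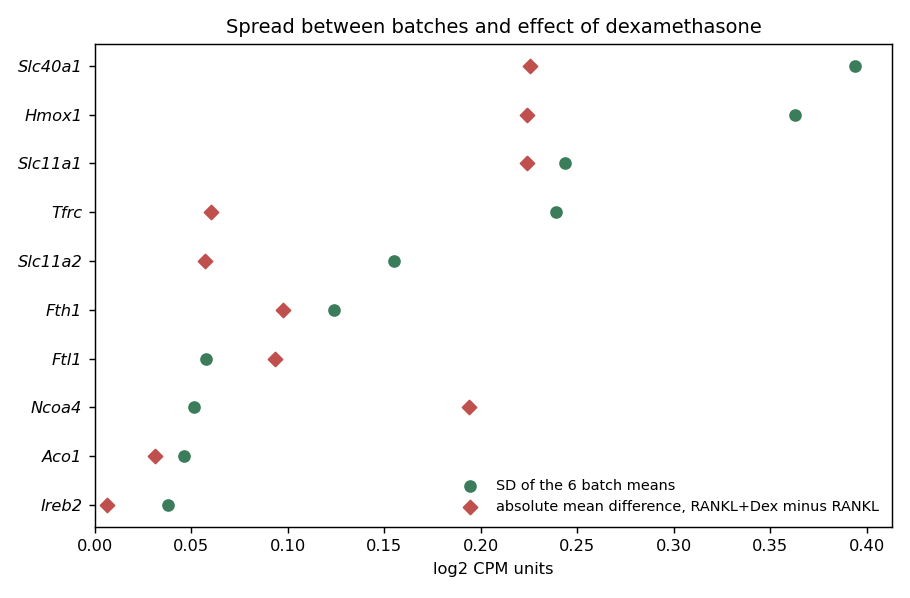
For each gene, the SD of the 6 batch means of log2 CPM (green circles) and the absolute mean difference between RANKL+Dex and RANKL (red diamonds), both in log2 units. For Ncoa4 the difference of 0.194 was larger than the SD of batch means of 0.0513, and for Hmox1, Slc40a1, Tfrc and Slc11a1 it was smaller.

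Ncoa4, the member called by both fits, was compared with all other genes by the Pearson correlation of log2 CPM over the 12 libraries after the group means were subtracted. Mgat2, an enzyme of N-glycan processing, came first with r = 0.939 and Hibadh, an enzyme of valine breakdown, second with r = 0.921. These are the highest of 13774 candidates, and the points share libraries and depth. The RANKL+Dex library of batch 1 had the lowest Ncoa4 level, at 239 CPM beside 261 CPM in the next lowest of its group. Its weight on these correlations was not tested. Mgat2 itself had a log2 fold change of 0.15 and Hibadh one of 0.10, both opposite in sign to Ncoa4.

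The other genes of iron and heme metabolism were read from a list of 89, of which 86 were in the table and 73 passed the filter on low counts. Of the 73, 10 were higher in RANKL+Dex, 5 were lower and 58 did not pass the test, or 20.5% called beside 15.5% of all tested genes. With the block, 12 were higher and 9 lower, or 28.8% beside 21.8%. The median log2 fold change of the 73 was 0.02. The counts by role that follow are small and are to be read beside the same shares of all tested genes.

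**Figure D5:**
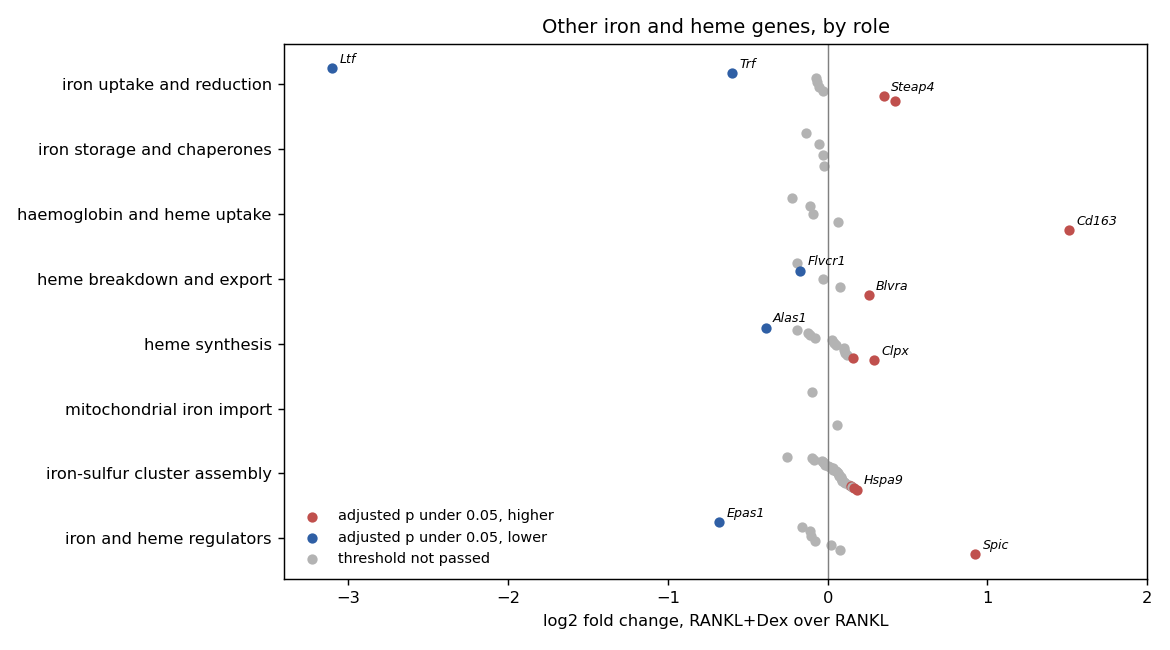
Log2 fold change, RANKL+Dex over RANKL, of the 73 tested genes of iron and heme metabolism by role, with genes at an adjusted p under 0.05 in red (higher) or blue (lower) and the rest in grey. Most points lie near 0, and Ltf at -3.10, Cd163 at 1.51 and Spic at 0.92 lie farthest out.

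Around iron uptake, 2 of 8 tested genes were higher and 2 lower. Steap4, a metalloreductase, averaged 126 ± 12.7 CPM in RANKL+Dex and 98.8 ± 2.29 CPM in RANKL (SD, n = 6 each; log2 fold change 0.35 ± 0.06, edgeR adjusted p = 4.0e-04). Slc39a8, a metal importer, averaged 3.04 CPM in RANKL+Dex and 2.27 CPM in RANKL (0.42 ± 0.13, adjusted p = 0.0373), a call lost in 13 of 22 alternatives, with adjusted p up to 0.151. Trf, which encodes transferrin, averaged 7.69 ± 1.34 CPM in RANKL+Dex and 11.7 ± 1.42 CPM in RANKL (-0.60 ± 0.11, adjusted p = 0.00172). Ltf, lactoferrin, averaged 0.370 ± 0.224 CPM in RANKL+Dex and 3.26 ± 0.585 CPM in RANKL (-3.10 ± 0.28, adjusted p = 1.1e-06). Ltf is a product of neutrophil granules, and all 6 tested neutrophil markers, Ltf among them, were lower, with sums over the list of 6.87 to 11.2 CPM in RANKL+Dex and 25.5 to 40.0 CPM in RANKL. The part of these cells in the Ltf result was not tested. Steap3, the endosomal ferrireductase that works beside Tfrc, averaged 112 CPM in RANKL+Dex and 117 CPM in RANKL (adjusted p = 0.327).

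By edgeR none of the 4 tested genes of iron storage and iron chaperoning was called, and 1, Herc2, had an unadjusted p under 0.05, with 144 CPM in RANKL+Dex and 158 CPM in RANKL (adjusted p = 0.1503; 0.0473 with the block). Pcbp1, which delivers iron to ferritin, averaged 380.1 CPM in RANKL+Dex and 387 CPM in RANKL (adjusted p = 0.683). No other gene of iron export or its regulation on the list had enough counts to be tested: the 6 in the table, Heph, Hephl1, Cp, Hamp, Bmp6 and Tmprss6, had at most 118 counts each over the 12 libraries. Slc40a1 was thus the only export gene with a test.

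Genes of haemoglobin and heme uptake included the largest rise of the list. Cd163, the haemoglobin-haptoglobin receptor of macrophages, averaged 4.89 ± 0.772 CPM in RANKL+Dex and 1.73 ± 0.505 CPM in RANKL, and was higher in 6 of 6 batches (log2 fold change 1.51 ± 0.18, edgeR adjusted p = 1.9e-05). It was the 1 called of 5. Lrp1, a receptor that takes up heme bound to hemopexin among many other ligands, averaged 1564 CPM in RANKL+Dex and 1827 CPM in RANKL (-0.22 ± 0.09, adjusted p = 0.108; 0.0276 with the block). The 5 macrophage markers did not move together. Mertk was higher, at 22.2 CPM in RANKL+Dex and 11.5 CPM in RANKL (edgeR adjusted p = 0.00272). Adgre1 had 88.8 CPM in RANKL+Dex and 109 CPM in RANKL and a lower level in RANKL+Dex in 6 of 6 batches (adjusted p = 0.228; 1.1e-04 with the block). The most abundant, Csf1r, had 2193 CPM in RANKL+Dex and 2138 CPM in RANKL (adjusted p = 0.747).

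Of the 5 other genes of heme breakdown and heme export, 1 was higher and 1 lower. Blvra, which reduces biliverdin to bilirubin, averaged 98.4 ± 7.40 CPM in RANKL+Dex and 82.4 ± 7.43 CPM in RANKL (log2 fold change 0.26 ± 0.06, edgeR adjusted p = 0.00813). Blvrb, which encodes another biliverdin reductase, averaged 183 ± 23.1 CPM in RANKL+Dex and 209 ± 16.6 CPM in RANKL (-0.19 ± 0.07, adjusted p = 0.0883; 0.00939 with the block). Flvcr1, described as a heme exporter, averaged 118 ± 9.29 CPM in RANKL+Dex and 133 ± 7.32 CPM in RANKL (-0.17 ± 0.05, adjusted p = 0.0334), a call lost in 12 of 22 alternatives, with adjusted p up to 0.139.

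In heme synthesis, the first and the last enzyme differed in direction. Alas1, the first and rate-limiting enzyme outside red cells, averaged 161 ± 14.1 CPM in RANKL+Dex and 210.2 ± 22.8 CPM in RANKL, and was lower in 6 of 6 batches (log2 fold change -0.39 ± 0.07, edgeR adjusted p = 8.8e-04). Fech, which inserts iron into the ring, averaged 110.1 ± 6.05 CPM in RANKL+Dex and 98.5 ± 3.26 CPM in RANKL (0.16 ± 0.04, adjusted p = 0.0135; 0.0709 without both libraries of batch 4). Clpx, a mitochondrial unfoldase known to act on ALAS enzymes, averaged 68.4 ± 6.02 CPM in RANKL+Dex and 55.8 ± 3.02 CPM in RANKL (0.29 ± 0.06, adjusted p = 0.00194). The other 11 of 14 did not pass, among them Slc25a39, the most abundant, with 441 CPM in RANKL+Dex and 412 CPM in RANKL (adjusted p = 0.0673; 0.0473 with the block).

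Neither mitochondrial iron importer was called, and Slc25a28 had 68.6 CPM in RANKL+Dex and 65.8 CPM in RANKL (edgeR adjusted p = 0.541). Of 27 genes of iron-sulfur cluster assembly, 3 were higher, 0 lower (also 0 at an unadjusted p under 0.05) and 24 did not pass. The share called was 11.1%, below the 15.5% of all tested genes. Of the 27 log2 fold changes, 20 were above 0, with a median of 0.06 against -0.0034 over all tested genes. Whether these genes moved as a set was not tested. Hspa9, the mitochondrial chaperone of this pathway, averaged 649 ± 28.9 CPM in RANKL+Dex and 572 ± 28.5 CPM in RANKL (0.18 ± 0.04, adjusted p = 0.00442). Isca2, a late-acting assembly factor, averaged 27.4 CPM in RANKL+Dex and 24.5 CPM in RANKL (0.17 ± 0.05, adjusted p = 0.0354), a call lost in 14 of 22 alternatives, with adjusted p up to 0.126. The third was Cisd1, a cluster protein of the outer mitochondrial membrane, with 51.8 CPM in RANKL+Dex and 46.8 CPM in RANKL (adjusted p = 0.0449).

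Among 8 transcriptional and protein regulators of iron and heme, 1 was higher and 1 lower. Spic, a transcription factor that heme induces in iron-recycling macrophages, averaged 13.7 ± 1.36 CPM in RANKL+Dex and 7.24 ± 0.489 CPM in RANKL (log2 fold change 0.92 ± 0.08, edgeR adjusted p = 8.8e-07). Epas1, a hypoxia-inducible factor whose mRNA is itself under iron regulatory protein control, averaged 5.69 ± 0.960 CPM in RANKL+Dex and 9.15 ± 1.36 CPM in RANKL (-0.68 ± 0.12, adjusted p = 0.00128). Mitf, the most abundant of the 8 and a transcription factor of osteoclasts, averaged 86.9 CPM in RANKL+Dex and 94.0 CPM in RANKL (adjusted p = 0.136).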

How the data were processed

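The authors deposited 1 table of raw read counts per gene, whole numbers not normalized, with 12 columns matched to libraries by name. The submitters' processing notes list DESeq 1.28.0, StringTie 1.3.3b, HISAT2 2.1.0, FastQC 0.11.5 and the build GRCm39; the counting program and strand setting are not stated there. Counts were filtered with filterByExpr (minimum count 10, total 15), scaled with TMM and tested with edgeR 4.0.16 in R 4.3.3 (quasi-likelihood test without a block, two-sided, Benjamini-Hochberg over 13775 genes, threshold 0.05), after a check on simulated data. SE was derived from the F statistic. The labels' batch number pairs libraries. Deviations of same-numbered libraries from their group means correlated by 0.165 on average and those of others by -0.033, and the block was an alternative. Because group means were subtracted, the second value nearly follows from the first and is no added evidence of pairing. The correlation was 0.186, 0.269 and 0.357 in batches 1, 2 and 5, but 0.053, 0.042 and 0.080 in batches 3, 4 and 6. Other alternatives were DESeq2 1.42.0, RLE scaling, other filters and left-out libraries. Within groups, chi-square per degree of freedom between libraries was 3.04 to 17.6, so none was a duplicate. The rule for named genes took all 10 members and, for each role, up to 2 higher and 2 lower genes with the smallest p among those past the threshold. It also took the most abundant gene of each role over all 12 libraries. The rule also covered the most abundant marker of each cell type, but of these only Mmp9 and Csf1r were described for the osteoclast and macrophage lists. Cisd1, Herc2, Mertk, Adgre1, the named osteoclast markers other than Mmp9 and the untested genes were named after their values were seen. Members and lists were chosen with earlier results of these data known. Lengths and stem-loops came from GENCODE M21 and share no coordinates with the table.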

Additional observations from a re-analysis of the deposited data

How the results depend on the processing

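Of the 10 genes, 1 was called without the block under RLE scaling, DESeq2 and both other filters, and 4 with the replicate block, in edgeR and also in DESeq2. The block in DESeq2, the block with a batch left out and the list without Ltf were chosen after seeing the data. Leaving out libraries or batches gave 1 to 2 calls without the block, where Ftl1 was the second, and 3 to 5 with it, where Fth1 joined without batch 1, Ftl1 without batch 3, and Slc40a1 was lost without batch 2. Ncoa4 was called in all 22 alternatives without the block, with log2 fold changes from -0.21 to -0.15 and adjusted p from 3.7e-04 to 0.0229. With the block and a batch left out, Ncoa4, Hmox1 and Slc11a1 were called in 6 of 6 fits. The 15 calls of the pathway list became 21 with the block, 17 with DESeq2, 13 with no filter and 14 without Ltf. With libraries or batches left out there were 10 to 29 calls. The 10 came without the block and without batch 4, and the 29 with the block and without batch 1. Over all tested genes the number of calls was also lowest and highest in these same fits, so the pathway counts moved with the whole table. Slc39a8 missed the threshold in 13 of 22 alternatives, Isca2 in 14 and Flvcr1 in 12. Values near 0 changed sign when libraries were left out: the log2 fold change of Tfrc ranged from -0.138 to 0.0127, that of Aco1 from -0.0504 to 0.00107 and that of Ireb2 from -0.0282 to 0.0425. Without the block, log2 fold changes ranged from 0.111 to 0.349 for Hmox1, 0.146 to 0.376 for Slc40a1, -0.295 to -0.138 for Slc11a1, -0.147 to -0.0541 for Fth1 and -0.161 to -0.0628 for Ftl1. The cause was not tested. Counting error weighs most on Slc40a1, the member with the fewest counts, and 13 pathway genes were too low to be tested.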
